A study of Mus musculus with 6 samples.

Results

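The genes described here are 10 markers of the primitive endoderm, all found by gene symbol among the 20633 RefSeq entries of a nuclear RNA-seq table from mouse embryonic stem cells. They carry 11 entries, since *Dab2* has 2, and for *Dab2* the entry with the higher mean was kept. For the description they were divided by role into regulators (*Gata4*, *Gata6*, *Sox17*, *Sox7* and the adaptor gene *Dab2*) and basement membrane genes (*Lama1*, *Lamb1*, *Col4a1*, *Col4a2* and *Sparc*). The cells were a *Rybp* fl/fl;*Yaf2*-/- line, grown from a single colony in which CRISPR/Cas9 had removed the first part of *Yaf2*, the paralogue of *Rybp*. A tamoxifen-inducible Cre recombinase in the line deletes the floxed *Rybp* gene, whose product stimulates histone H2A ubiquitylation by Polycomb repressive complex 1. Of the 6 libraries, 3 came from untreated cells (UNT) and 3 from cells given 800 nM 4-hydroxytamoxifen for 96 hr (OHT). The cells of both groups carried the *Yaf2* deletion, no OHT-treated line without floxed *Rybp* was among the samples, and all cells grew on gelatin with serum and leukemia inhibitory factor.

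The value available for each entry is the base mean, the authors' mean of library-size normalized read counts over all the UNT and OHT libraries together. Values per library were not analysed here and the columns of the authors' own comparison were not used, so the levels below carry no SD, and neither a difference between OHT and UNT nor a difference between neighbouring genes could be tested. Sequencing depth per library is therefore unknown. Of all entries, 19198 had a base mean above 0, and percentiles below are positions among these entries, or among those of them with a known length. *Rybp* had a base mean of 13983 (percentile 99.3) and *Yaf2* one of 3.24 (percentile 11.7), means that do not separate the libraries before and after deletion of *Rybp*.

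The primitive endoderm is the extraembryonic layer that separates from the pluripotent epiblast in the blastocyst and later forms the visceral and parietal endoderm of the yolk sac. GATA6 and GATA4, zinc finger transcription factors, and SOX17 and SOX7, HMG box factors of the SoxF subgroup, direct this fate, and forced expression of GATA factors in embryonic stem cells can convert them to endoderm. DAB2 is a clathrin adaptor that the endoderm needs for endocytosis and for its position at the surface. The mature layer secretes a basement membrane, in which laminin trimers and type IV collagen networks are joined by linking proteins, and the collagen-binding glycoprotein SPARC is secreted in large amounts by parietal endoderm.

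The basement membrane genes were all higher than the regulators in these nuclei. Per kb of gene span all 5 regulators lay below the median of all entries. *Dab2* lay above it per kb of exon (percentile 50.4) and without a length correction (percentile 56.5). Divided by the length of the gene, the regulators lay between 2.89 and 4.00 normalized counts per kb, against a median of 12.2 per kb over all entries above 0. On the same scale the basement membrane genes lay between 13.3 and 169 per kb. On that scale none of the 5 regulators and all 5 basement membrane genes exceeded the median of all entries. The ranges of the groups did not overlap, and *Col4a2*, the lowest basement membrane gene, stood close to the median. Together the 10 genes took 0.0892% of the summed base means, and 95.7% of that was in the basement membrane genes.

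**Figure D1:**
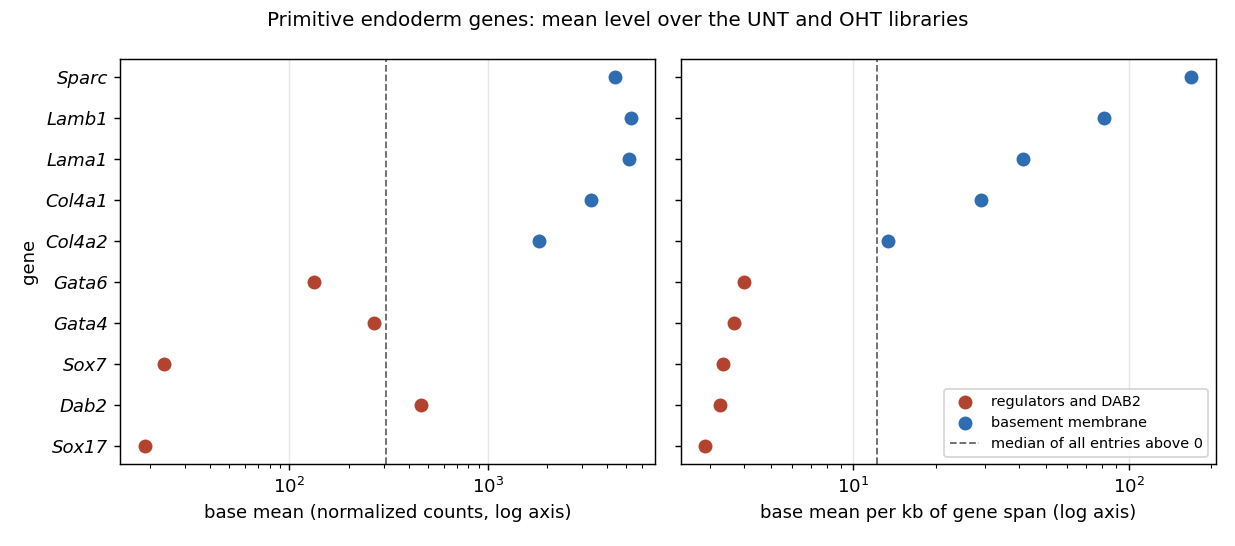
Each point is a gene, with its base mean over the UNT and OHT libraries on the left and its base mean per kb of gene span on the right, both on log axes. The dashed lines mark the medians of all entries above 0 (307 normalized counts and 12.2 per kb), and on the right the 5 regulators lie left of the line and the 5 basement membrane genes right of it. There are no error bars because the value is already a mean over libraries.

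Among the regulators, the GATA genes had the most reads of the transcription factors. *Gata4*, matched to a transcript at chromosome 14, 63198922 to 63245248 (minus strand, mm10 throughout), had a base mean of 269, at percentile 48.0 before any correction for length. *Gata6*, at chromosome 18, 11052470 to 11085635 (plus strand), had a base mean of 133, at percentile 39.3. Per kb of gene span the order turned, with 4.00 normalized counts per kb for *Gata6* and 3.69 for *Gata4*. The *Gata4* gene in the RefSeq annotation spans 72.8 kb and its matched transcript 46.3 kb, and per kb of the transcript *Gata4* had 5.80 and *Gata6* 4.00. Which of these genes is the higher thus depends on the length used. Per kb of gene span, *Gata6* lay at percentile 36.0 and *Gata4* at percentile 35.2.

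The SoxF genes had the fewest reads of all the members. *Sox17*, at chromosome 1, 4491713 to 4496363 (minus strand), had a base mean of 18.8, which is a sum of 113 normalized counts over the 6 libraries. *Sox7*, at chromosome 14, 63943673 to 63950732 (plus strand), had a base mean of 23.6, or a sum of 142. These genes are short, with gene spans of 6.50 kb for *Sox17* and 7.03 kb for *Sox7*. Their levels per kb of gene span were 2.89 for *Sox17* and 3.36 for *Sox7*. Per kb of exon they were lower than the GATA genes, at 12.4 for *Sox17* and 7.15 for *Sox7* against 79.6 for *Gata4* and 41.0 for *Gata6*. Exons make up 46.7% of the *Sox7* transcript span and 32.5% of that of *Sox17*, but 7.28% for *Gata4* and 9.75% for *Gata6*. *Sox7* and *Gata4* share chromosome 14, with 698 kb between their transcripts.

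*Dab2* had the highest base mean of the regulators, and among them its percentile moved most between scales. It is represented by 2 entries on the plus strand of chromosome 15 that begin at different starts. The longer, from 6299788 to 6440712, had a base mean of 461, and the shorter, from 6386776 to 6439628, one of 459. The span of the longer entry is 2.67 times that of the shorter, and its start lies 87.0 kb upstream, yet its base mean exceeded that of the shorter by only 2.11 normalized counts. Per kb of transcript span the longer entry had 3.27 normalized counts (percentile 32.4) and the shorter 8.69 (percentile 43.0). The entry kept lay above the median of all entries without a length correction (percentile 56.5) and just above it per kb of exon (percentile 50.4), and below it per kb of gene span (percentile 34.1). How read pairs that fall in both entries were assigned is not given in the sources used here.

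The sequences around the *Dab2* starts are shown because the reads of its entries scarcely differed. They are RefSeq promoter windows of GRCm38.p6, from 250 bases before a gene's start to 50 bases after it, on the plus strand. The upstream window is chr15:6299539-6299838 and the downstream window is chr15:6386498-6386797. They read 5′ to 3′ as follows, with CpG dinucleotides in capitals.
Dab2 upstream start: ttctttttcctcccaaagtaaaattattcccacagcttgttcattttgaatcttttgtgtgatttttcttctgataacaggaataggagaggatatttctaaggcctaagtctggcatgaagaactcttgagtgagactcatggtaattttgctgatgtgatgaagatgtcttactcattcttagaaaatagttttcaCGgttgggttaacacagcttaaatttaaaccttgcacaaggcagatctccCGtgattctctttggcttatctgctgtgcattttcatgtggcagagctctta
Dab2 downstream start: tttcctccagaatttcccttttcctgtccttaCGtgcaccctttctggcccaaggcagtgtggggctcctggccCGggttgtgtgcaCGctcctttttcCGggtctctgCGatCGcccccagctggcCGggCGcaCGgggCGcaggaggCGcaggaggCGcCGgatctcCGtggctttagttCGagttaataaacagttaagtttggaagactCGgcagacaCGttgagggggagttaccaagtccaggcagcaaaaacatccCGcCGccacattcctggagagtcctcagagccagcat

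The upstream window, at the start of the longer entry, holds 2 CpG dinucleotides (percentile 18.7 of 32851 promoter windows of the same length). The downstream window, whose start lies 28 bases from that of the shorter entry, holds 19 (percentile 72.7). The ratio of observed to expected CpG was 0.188 upstream and 0.720 downstream, against a median of 0.384 over all windows. The upstream window also holds 2 matches to the GATA motif (AGATA or TGATA followed by A or G, on either strand), which 29.8% of all windows hold at least once. No read position was analysed, so the use of either start was not measured.

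The laminin genes had the highest base means of the members. *Lamb1*, which encodes a laminin beta chain, occupies chromosome 12, 31265293 to 31329644 (plus strand), and had a base mean of 5255, at percentile 94.8. *Lama1*, which encodes the alpha chain of the main laminin of the early embryo, occupies chromosome 17, 67697259 to 67822647 (plus strand), and had a base mean of 5169, at percentile 94.7. The base means of these genes were nearly equal (ratio 1.02), while per kb of gene span *Lamb1* had 81.5 normalized counts and *Lama1* 41.2, a ratio of 1.98. Their partner in the trimer, *Lamc1*, stood above both with 154 normalized counts per kb, which is 1.89 times *Lamb1* and 3.74 times *Lama1*.

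*Sparc* was the highest member per kb under each length. It occupies chromosome 11, 55394500 to 55419898 (minus strand). Its base mean was 4379, at percentile 93.2, and its level per kb of gene span was 169, at percentile 93.9. This is 13.9 times the median of all entries, and 58.5 times the level of *Sox17*, the lowest member on that scale. The RefSeq promoter window of *Sparc* holds 4 CpG dinucleotides (percentile 34.7) and is set around a start site 182 bases upstream of that of its entry. That of *Lamb1* holds 18 (percentile 71.1).

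The type IV collagen genes *Col4a1* and *Col4a2* differed in level although they start next to each other. They encode the alpha chains of the collagen found in nearly all basement membranes. On chromosome 8, *Col4a1* runs on the minus strand from 11312826 down to 11198423, and *Col4a2* on the plus strand from 11312805 to 11449287. Their start positions are 21 bases apart. *Col4a1* had a base mean of 3327 (percentile 90.3) and *Col4a2* one of 1821 (percentile 81.6). Per kb of gene span the levels were 29.1 and 13.3, a ratio of 2.18, and per kb of exon 503 and 282, a ratio of 1.78. *Col4a1* was thus the higher on each scale computed, and whether the difference exceeds the spread between libraries was not tested. *Col4a2* lay at percentile 51.6 per kb of gene span and at percentile 49.2 per kb of transcript span, so that its side of the median rests on the length used.

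The promoter windows of the pair are shown because the genes start within the same short stretch of DNA. They come from RefSeq on GRCm38.p6, at chr8:11312777-11313076 on the minus strand for *Col4a1* and chr8:11312555-11312854 on the plus strand for *Col4a2*. They share 78 bases on opposite strands and cover 522 bases together. Each is written 5′ to 3′ on the strand of its gene, with CpG dinucleotides in capitals.
Col4a1: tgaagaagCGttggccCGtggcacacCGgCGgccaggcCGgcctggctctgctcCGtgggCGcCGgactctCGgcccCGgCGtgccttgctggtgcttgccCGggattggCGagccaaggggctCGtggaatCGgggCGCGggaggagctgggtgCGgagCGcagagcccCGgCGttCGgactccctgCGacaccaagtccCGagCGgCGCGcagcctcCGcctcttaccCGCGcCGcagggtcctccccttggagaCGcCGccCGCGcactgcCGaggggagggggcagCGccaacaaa
Col4a2: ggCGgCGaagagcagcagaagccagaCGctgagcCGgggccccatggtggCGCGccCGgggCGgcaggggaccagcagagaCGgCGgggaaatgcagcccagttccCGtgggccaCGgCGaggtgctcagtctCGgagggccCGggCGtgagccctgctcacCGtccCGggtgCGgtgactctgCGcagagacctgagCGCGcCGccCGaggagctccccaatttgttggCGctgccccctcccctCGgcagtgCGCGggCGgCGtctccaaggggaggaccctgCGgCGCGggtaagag

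Both windows are rich in CpG, with 37 dinucleotides for *Col4a1* (percentile 94.7) and 33 for *Col4a2* (percentile 91.9) against a median of 7.00. Their GC contents were 74.0% and 73.7%, against 52.7% over all windows. The GC box GGGCGG, searched on both strands, occurs 1 time in the *Col4a1* window and 3 times in the *Col4a2* window, and 35.7% of all windows hold it. The match in the *Col4a1* window lies in the shared bases and is also among those counted in the *Col4a2* window. Neither window holds the GATA motif, the SOX motif (ACAATG or ACAAAG, in 28.6% of all windows) or the TATA box TATAAA (in 13.6%). Windows were used for *Col4a1*, *Col4a2*, *Dab2*, *Lamb1* and *Sparc*, and none for *Gata4*, *Gata6*, *Lama1*, *Sox7* and *Sox17*. Of the 6 windows, 1 held the GATA motif, 3 the GC box, and 0 the SOX motif or the TATA box. A match is a match of letters, and binding was not measured.

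**Figure D2:**
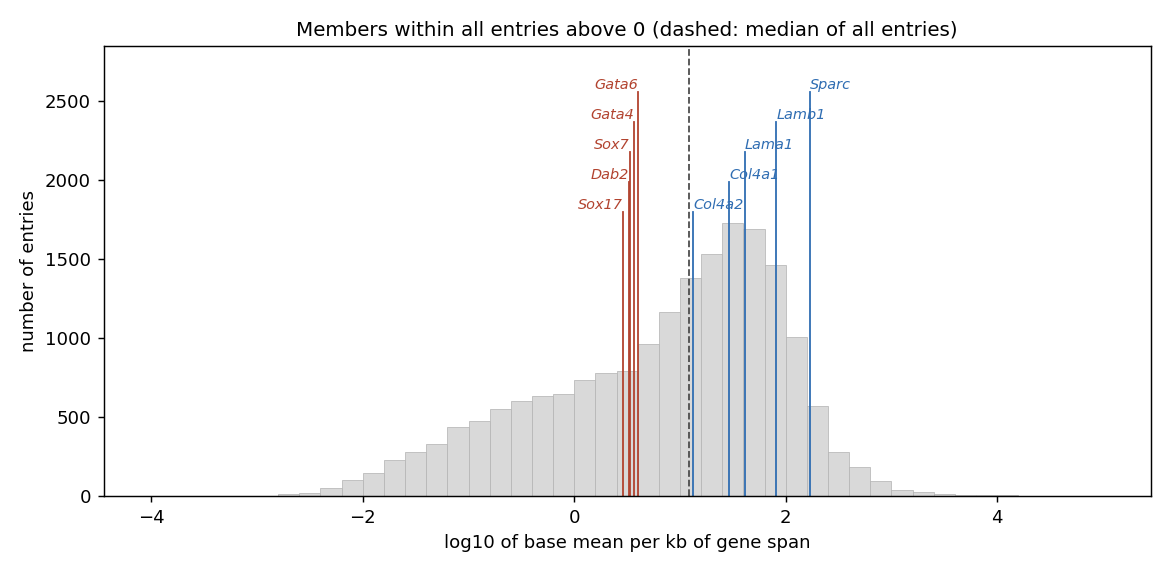
The grey bars count all entries above 0 by the log10 of their base mean per kb of gene span, and the coloured lines mark the members (red, regulators; blue, basement membrane). The red lines fall together below the dashed median and the blue lines spread above it, from *Col4a2* beside the median to *Sparc* in the right flank.

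The division between the groups did not rest on the length used, while the order within the regulators did. On each of the 4 scales (the base mean itself, per kb of gene span, per kb of transcript span and per kb of exon), every basement membrane gene was higher than every regulator. The basement membrane genes lay between percentile 81.6 and 94.8 on the base mean itself and between 65.8 and 96.7 per kb of exon. The regulators lay between percentile 22.7 and 56.5 on the base mean itself and between 21.0 and 50.4 per kb of exon, but between 32.9 and 36.0 per kb of gene span. For nuclear RNA, which contains introns, it matters whether pairs were counted over the whole gene or over exons, and the sources used here do not give this.

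**Figure D3:**
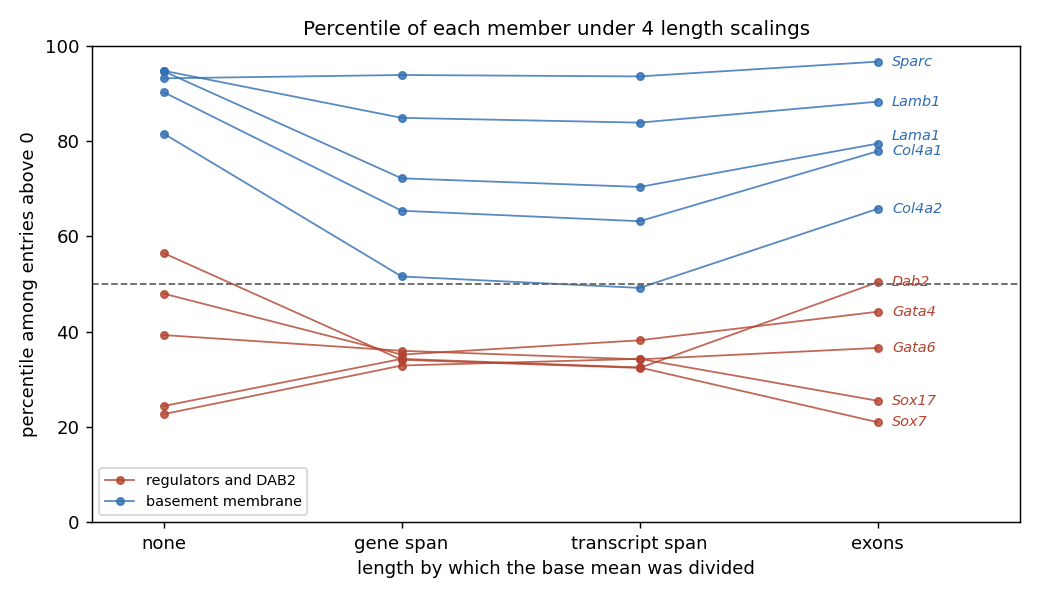
Each line is a member, and the vertical axis gives its percentile among entries above 0 when the base mean was divided by nothing, by gene span, by transcript span or by exon length. The blue lines stay above the red ones throughout, and the red lines converge between percentiles 32.9 and 36.0 at gene span.

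Genes that overlap a member could add reads to it. The libraries were made with a directional kit, and whether the counting used strand is not given in the sources used here. In the GENCODE annotation no other gene overlaps *Sparc*, *Lamb1*, *Lama1*, *Gata4*, *Sox7* or *Sox17*. The only overlap on the same strand was *Gm44716* in *Col4a1*, over 0.621% of its span. The widest on the opposite strand was *Gm15419*, over 13.7% of the *Col4a2* span, and *Col4a1* and *Col4a2* themselves share 22 bases. The part of these overlaps in the levels was not tested.

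The labelled cell type was examined with its defining markers. Of the 12 pluripotency genes listed, 11 had an entry, and all 11 lay above the median of all entries, between percentile 81.3 and 99.6 per kb of gene span. *Sox2* had 1627 normalized counts per kb and *Pou5f1*, which encodes OCT4, 640, and the lowest, *Esrrb*, had 66.1. On that scale each of these genes stood above all 5 regulators, and 7 of them stood above *Sparc*. Per kb of exon *Esrrb* was instead the highest of the list, with 2466. There only *Esrrb* and *Pou5f1* (2231) exceeded *Sparc* (2070), while all 11 still stood above the 5 regulators. In bulk RNA, fewer cells of a type and less RNA per cell cannot be told apart, so the low levels of the regulators do not say how many cells transcribed them.

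The rest of the primitive endoderm programme was mixed in level. Of 9 other genes that act in the choice of this fate, 4 exceeded the median of all entries. *Fgf4*, the ligand from the epiblast that induces primitive endoderm, had 950 normalized counts per kb of gene span (percentile 99.4), and *Sall4*, a zinc finger gene shared with the pluripotent state, 268 (percentile 96.7). The lowest was *Hnf4a*, which encodes a nuclear receptor used in the later endoderm, with 0.0968 per kb (percentile 8.3). Of the 9 genes, 5 were above the highest regulator member, 4 were below the lowest, and 0 fell between them. The median percentile of this list ran from 38.6 to 75.1 with the scale and background used, so no level is given for the list as a whole.

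Genes of the differentiated visceral and parietal endoderm were mostly low. Of 12, 2 exceeded the median of all entries per kb of gene span. They were *Hhex*, a homeobox gene, with 23.7 normalized counts per kb and *Lrp2*, an endocytic receptor gene, with 16.7. Per kb of exon 1 did, *Lrp2* (percentile 56.8), while *Hhex* was at percentile 43.8. On the base mean itself *Lrp2* (percentile 87.5) and *Cubn* (percentile 64.3) did, and *Hhex* was at percentile 39.9. *Afp*, which encodes the fetal serum protein alpha-fetoprotein, had a base mean of 0.897, and *Cer1*, a Nodal antagonist gene, was listed at 0. The median of the list was 5.02 per kb of gene span, against 3.36 for the regulator members and 12.2 for all entries. The order of the list and the regulator members turned on other scales. The medians were 31.1 against 41.0 per kb of exon, and 51.8 against 133 on the base mean itself.

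Other genes of the basement membrane and of collagen handling were mostly above the middle of the basement membrane members. Of 18 with an entry, 14 exceeded the median of all entries, and the list median was 110 normalized counts per kb of gene span (percentile 89.6), against 41.2 (percentile 72.2) for the basement membrane members. The highest were *Serpinh1*, which encodes the collagen chaperone HSP47, with 416 per kb, and *Itgb1*, which encodes the beta subunit of the laminin-binding integrins, with 306. The lowest were *Col4a3* with 0.0648 and *Col4a4* with 0.185. Of the 18, 13 were above the median of the basement membrane members and 4 were above *Sparc*. The 4 genes below *Col4a2*, the lowest member of the group, are the other type IV collagen genes *Col4a3*, *Col4a4*, *Col4a5* and *Col4a6*, named after their values were seen.

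Markers of other cell types were examined beside the members. Of 10 fibroblast genes, 2 exceeded the median of all entries, *Col1a1* with 22.0 normalized counts per kb of gene span and *Thy1* with 21.2, and *Postn* was the lowest with 0.0424. The list median was 3.25 per kb. On that scale *Col1a1* and *Thy1* were at percentiles 59.9 and 59.3, *Twist1* at 44.4, *Pdgfrb* at 41.7 and *Col3a1* at 36.2. Lower were *Col1a2* at 31.5, *Twist2* at 23.3, *Dcn* at 14.2, *Prrx1* at 12.6 and *Postn* at 4.7. None of these genes was at 0, and the part of such cells in the levels of the basement membrane genes was not tested.

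Marker genes of the other early lineages, mostly regulators with some structural and receptor genes, were at levels on both sides of the primitive endoderm regulators. Of 8 trophoblast genes, 1 exceeded the median of all entries, *Tfap2c* with 87.4 normalized counts per kb of gene span, followed by *Cdx2* with 11.6, and the lowest was *Elf5* with 0.134. Of 7 early neural genes, 3 exceeded it, with *Nes* (82.0), an intermediate filament gene, and *Tubb3* (59.8), a tubulin gene, the highest and *Zic1* (0.331) the lowest. Of 8 genes of the primitive streak and mesoderm, 0 exceeded it, with *Mixl1* the highest at 4.53 and *Hand2* the lowest at 0.479. The list medians were 9.45 for trophoblast, 7.22 for early neural and 1.71 for streak and mesoderm, beside 3.36 for the primitive endoderm regulators. The primitive endoderm regulators thus lay between the streak genes and the early neural genes in this order, which was not tested. The order turned per kb of exon, where the median percentile of the primitive endoderm regulators was 36.6, above 30.9 for trophoblast, 24.7 for early neural and 21.8 for streak and mesoderm.

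**Figure D4:**
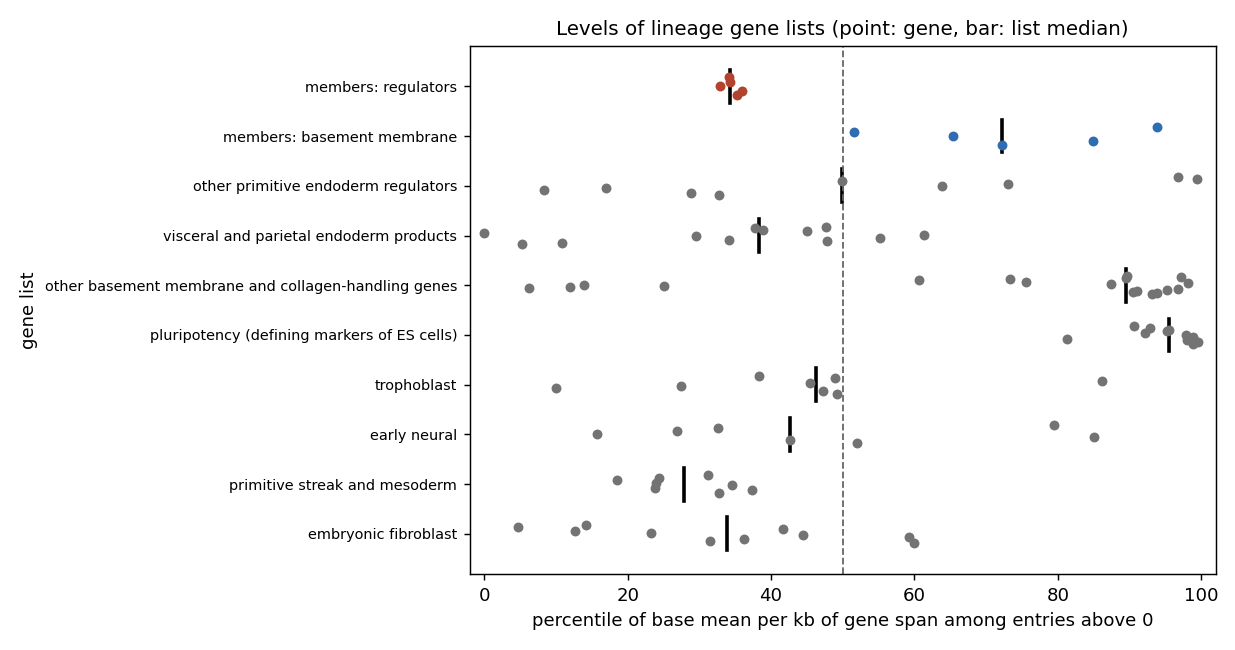
Each point is a gene, placed by the percentile of its base mean per kb of gene span among entries above 0, and each black bar is the median of its list. The red points of the regulator members cluster between percentiles 32.9 and 36.0, while the basement membrane members (blue) run from 51.6 to 93.9 and the pluripotency genes from 81.3 to 99.6.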

How the data were processed

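Nuclear RNA from 3 UNT and 3 OHT libraries was depleted of rRNA and read from both fragment ends over 40 bp. Per the study's methods, the authors removed rRNA matches (bowtie2), mapped the rest to mm10 by STAR, gave its unmapped reads to bowtie2, counted pairs over RefSeq genes kept for unique start and end sites, and normalized with DESeq2. The deposited base mean is a signal, the authors' mean of normalized counts over all libraries, with no correction for gene length. The other 6 columns hold the authors' own comparison of OHT with UNT (fold change, standard error, test statistic, p-values and a threshold flag) and were not used.

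Entries were named by RefSeq identifier from the GRCm38.p6 gene table (20446 entries) and otherwise GENCODE vM21 (114), and 73 had no symbol. Gene spans came from the former, and transcript spans and exon lengths from the latter, for 19035 and 18871 entries above 0. For genes with several entries the highest base mean was kept. Percentiles were computed in Python 3.11.15 with numpy 2.4.6 and pandas 2.3.3, and tested on simulated data. The count test planned in case of counts per library was not run, the protein comparison was not made, and no test was made. The members and lists were chosen with earlier results of these data known. The named genes are all members, the 2 highest and 2 lowest per kb of gene span of each list, and *Rybp* and *Yaf2*, except an item that is not reported here. Any other gene was named after its values were seen. *Nid1*, *Dppa5a* and *Ncam1* of the lists were not analysed here. Alternatives were other lengths, backgrounds and filters, and the sum over entries.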

Additional observations from a re-analysis of the deposited data

How the results depend on the processing

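No paired analysis was possible because values per library were not analysed here. For the same reason the count fits, the replicate block and leaving out replicates were not run, and replicate spread and depth per library limit every level. Of the regulators, 0 exceeded the median of all entries per kb of gene span, and 1 (*Dab2*) did per kb of exon and 1 without a length correction. The number of basement membrane genes above the median was 5, and 4 with a base mean of at least 10 in the background or per kb of transcript span, where *Col4a2* fell below it. The median percentile of the 10 members, a midpoint between groups, was 43.8. It was 58.1 per kb of exon, 69.1 without a length correction and 42.9 with 1 entry per gene in the background. It was 31.3 with a base mean of at least 10, 47.7 with entries at 0 included and 46.5 with the entries of a gene summed. Among the members only *Dab2* has 2 entries, which overlap and had base means of 461 and 459. How read pairs in both entries were assigned is not given, so their sum may count the same pairs more than once. The value of 46.5 therefore cannot show whether the median depends on the entry kept. Scaling by transcript span, and the counts for each group, were added after seeing the data. Of the 8 other lists, 7 kept their median on the same side of the middle under all 5 alternatives; the exception was the other primitive endoderm regulators, and trophoblast came to 50.0 with entries at 0 included.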

Other observations

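The families of the members were looked up after the members' values had been seen. Among the GATA factors, *Gata4* and *Gata6* had the highest base means, 269 and 133, followed by *Gata2* (63.4), *Gata3* (47.8), *Gata1* (18.6) and *Gata5* (3.50). Per kb of gene span *Gata2* had 4.82 normalized counts, above *Gata6* at 4.00 and *Gata4* at 3.69, so that the first places of the family depend on length. In the SoxF group, *Sox18* had a base mean of 10.1, below *Sox17* (18.8) and *Sox7* (23.6), and per kb of gene span 5.62, above both. *Dab1*, the neuronal relative of *Dab2*, had a base mean of 2207 and 1.96 normalized counts per kb of gene span, against 461 and 3.27 for *Dab2*.

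Within the laminins, each chain class had a gene at a high level and at least 1 that was low. Among the alpha chains, *Lama5* had 167 normalized counts per kb of gene span and *Lama1* 41.2, while *Lama3* had 3.12, *Lama4* 1.03 and *Lama2* 0.360. Among the beta chains, *Lamb2* had 120, *Lamb1* 81.5 and *Lamb3* 4.45. The order of *Lamb1* and *Lamb2* turned per kb of exon, with 909 for *Lamb1* and 227 for *Lamb2*. Among the gamma chains, *Lamc1* had 154 per kb of gene span and *Lamc3* 0.696. *Sparc*, at 169, exceeded the 6 relatives of its family looked up, of which *Spock2* was the nearest (percentile 44.0) and *Sparcl1* the lowest at 0.185.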
